A study of Rattus norvegicus with 22 samples.

Results

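The genes described here are 40 genes of DNA replication and mitosis, measured in the rat spinal cord 24 h after contusion and after tamoxifen (TMX). They comprise 15 genes that act in S phase, 24 that act in G2 and mitosis, and Ccnd1, which encodes cyclin D1 of G1. The members were chosen by symbol, and each was taken at the transcript that the annotation of the array gives that symbol. Of the 40 genes, 36 were named in this way, each at 1 transcript of 23188: 14 replication genes, 21 mitotic genes and Ccnd1. Mcm5 and Top2a were named only by the study's own list of changed transcripts, which selects for change, so they are described apart and enter no count of changed genes. Bub1b and Cenpe had no transcript with their symbol here, and no value is given for them.

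All 22 animals were adult male Long-Evans rats, and each array (Clariom S) held the RNA of 1 rat. SCI rats received a laminectomy at the ninth thoracic vertebra and a severe contusion from a 10 g rod dropped 50 mm. Sham rats had soft tissue surgery with neither laminectomy nor contusion, so any difference between SCI and sham includes the laminectomy. A single intraperitoneal dose of TMX, a selective estrogen receptor modulator, at 5 mg/kg (TMX+) or of its ethyl alcohol and corn oil vehicle (TMX-) followed 30 min after surgery, all rats received tramadol, and a cord segment of 20 mm was collected. The groups were Sham/TMX- (n = 5), Sham/TMX+ (n = 6), SCI/TMX- (n = 5) and SCI/TMX+ (n = 6).

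A cell that divides first licenses its origins by loading the MCM helicase, copies its DNA in S phase, and then separates the chromosomes on a spindle in mitosis. E2F factors act on promoters of many replication genes, while many mitotic genes are transcribed later, through a promoter element called the cell cycle homology region (CHR). In the adult cord, most neurons do not divide, whereas glial precursors, microglia, endothelium and incoming leukocytes can do so after injury.

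Promoters are shown first because the 2 classes differ in these letters. Those printed have the largest moderated t (difference over its standard error) in their class after SCI without TMX. Only members named by the array annotation and with a promoter were ranked. Ranked by fold change, Mcm2 and Cdk1, whose windows are not shown, would precede Mcm3 and Knl1. RefSeq (GRCr8) gave a promoter, from 250 bases before to 50 after the start of the gene, for 31 of the 40 members, 11 of them replication genes and 20 mitotic genes, whether or not the array annotation named the gene. The E2F site was searched as TTTGGCGC, TTTCCCGC, TTTGGCGG or TTTCGCGC, the CHR as TTTGAA or TTCGAA, and the CCAAT box as CCAAT, each on both strands. Capitals mark every match, and matches on opposite strands can overlap, as in Mcm6. The replication promoters shown are those of Mcm6 at chr13:42404303-42404602 on the minus strand, Pcna at chr3:139955771-139956070 on the minus strand and Mcm3 at chr9:30733697-30733996 on the minus strand. In Mcm6 and Mcm3 the capitals mark E2F sites and CCAAT boxes, and in Pcna a CCAAT box only.
Mcm6: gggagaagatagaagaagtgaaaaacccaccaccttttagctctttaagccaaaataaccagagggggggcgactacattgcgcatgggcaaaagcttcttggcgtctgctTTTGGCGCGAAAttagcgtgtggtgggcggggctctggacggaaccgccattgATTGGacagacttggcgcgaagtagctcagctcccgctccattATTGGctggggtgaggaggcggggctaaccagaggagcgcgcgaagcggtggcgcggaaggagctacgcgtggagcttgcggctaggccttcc
Pcna: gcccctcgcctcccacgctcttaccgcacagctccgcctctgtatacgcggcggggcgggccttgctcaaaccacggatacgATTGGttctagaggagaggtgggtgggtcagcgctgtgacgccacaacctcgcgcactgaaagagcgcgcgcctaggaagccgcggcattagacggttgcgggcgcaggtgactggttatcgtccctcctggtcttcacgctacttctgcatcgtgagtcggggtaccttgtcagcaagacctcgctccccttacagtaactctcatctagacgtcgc
Mcm3: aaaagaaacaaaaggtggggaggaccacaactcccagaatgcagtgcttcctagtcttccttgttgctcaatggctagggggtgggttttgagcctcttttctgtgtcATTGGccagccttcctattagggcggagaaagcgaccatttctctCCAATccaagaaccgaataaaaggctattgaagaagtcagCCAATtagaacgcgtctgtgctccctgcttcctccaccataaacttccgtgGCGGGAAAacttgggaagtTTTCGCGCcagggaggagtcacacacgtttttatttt

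The mitotic promoters shown are those of Mki67 at chr1:199952544-199952843 on the minus strand, Psrc1 at chr2:198710299-198710598 on the plus strand and Knl1 at chr3:126490716-126491015 on the plus strand. Capitals mark CHR elements and CCAAT boxes in Mki67 and Psrc1, and in Knl1 a CHR read on the opposite strand. The Knl1 window had a GC content of 29.7%, the lowest of the 31, against 41.0% to 70.0% in the others, and the start annotated by RefSeq may be internal, so this window may not be the promoter of the gene. The annotated start of Aurka, whose window is not shown and held no match, may be internal as well, and that window stays in the counts.
Mki67: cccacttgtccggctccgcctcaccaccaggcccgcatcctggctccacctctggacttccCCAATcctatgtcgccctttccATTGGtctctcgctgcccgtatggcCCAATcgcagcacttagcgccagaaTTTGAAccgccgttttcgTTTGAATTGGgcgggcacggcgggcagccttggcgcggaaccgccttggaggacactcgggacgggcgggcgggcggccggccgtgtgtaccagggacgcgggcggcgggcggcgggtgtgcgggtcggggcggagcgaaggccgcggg
Psrc1: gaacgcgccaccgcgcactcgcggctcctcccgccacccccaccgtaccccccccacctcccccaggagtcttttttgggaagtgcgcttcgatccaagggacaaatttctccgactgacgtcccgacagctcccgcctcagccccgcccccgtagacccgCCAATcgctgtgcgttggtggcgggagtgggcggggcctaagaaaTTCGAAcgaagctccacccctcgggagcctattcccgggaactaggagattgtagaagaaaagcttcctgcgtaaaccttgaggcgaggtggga
Knl1: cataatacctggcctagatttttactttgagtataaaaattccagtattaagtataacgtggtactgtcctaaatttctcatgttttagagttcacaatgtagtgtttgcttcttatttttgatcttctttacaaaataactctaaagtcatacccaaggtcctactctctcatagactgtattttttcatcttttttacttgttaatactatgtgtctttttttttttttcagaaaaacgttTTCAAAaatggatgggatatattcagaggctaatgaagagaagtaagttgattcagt

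An E2F site was found in 9 of the 11 replication promoters (81.82%) and in 1 of the 20 mitotic promoters (5.0%, Cdk1), against 2.31% of all 27457 rat promoters of the same length. The CHR was found in 14 of 20 mitotic promoters (70.0%) and 2 of 11 replication promoters (18.18%), against 19.52% of all promoters. Without the Knl1 window, 13 of 19 mitotic promoters held it. Within the shorter stretch from 100 bases before to 50 after the start, the CHR was held by the same number of mitotic promoters, 14, by 0 replication promoters and by 8.68% of all promoters. A CCAAT box was present in 7 of 11 replication and 16 of 20 mitotic promoters, against 37.74% of all. Of the mitotic promoters, 12 held both a CHR and a CCAAT box, against 7.83% of all. These matches describe letters, and a promoter with no match, such as that of Pcna, only lacks these letters in this window.

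**Figure D1:**
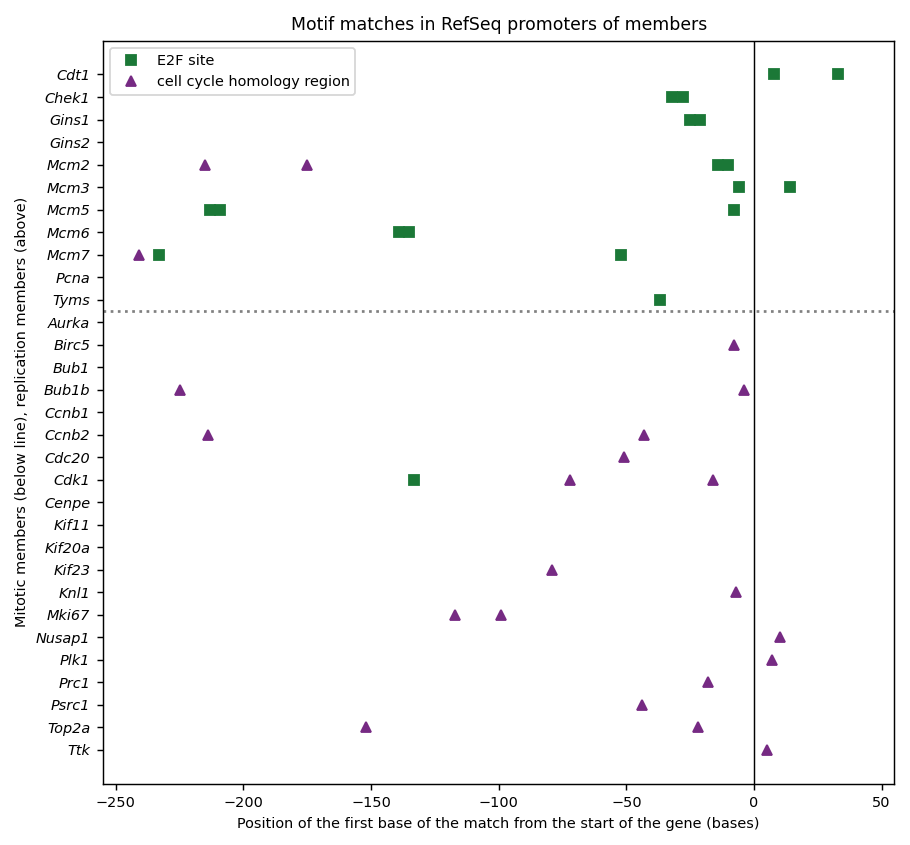
Positions of E2F sites (squares) and CHR elements (triangles) in the RefSeq promoters of 31 members, in bases from the start of the gene; each row is 1 gene, with replication genes above the dotted line and mitotic genes below. The squares lie in 9 of 11 replication rows and in the mitotic row of Cdk1, and the triangles in 14 of 20 mitotic rows.

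The deposited values are log2 signals, and array medians lay between 5.41 and 5.47. Of the 36 members, 27 had a mean signal below that of the median transcript, including 18 of the 21 mitotic genes, and levels are not compared between genes. Neuronal markers had a mean log2 signal between 9.38 and 10.1 in every rat, as fits the labelled tissue. Among the SCI/TMX- rats, 13c and 15c stood apart on the second principal component of all transcripts, with scores of 23.0 and 41.7, whereas 16c, 17c and 18c scored from -16.2 to -8.67. In SCI/TMX+, 11b scored -23.7 against -9.27 to 3.12 in the others. Counts are therefore also given without these rats.

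At 24 h after contusion without TMX, genes of the replication machinery were higher in the cord, and a smaller share of the mitotic genes was. In SCI/TMX- against Sham/TMX-, 11 of the 14 replication genes rose at an adjusted p under 0.05 and 0 fell, with a median log2 fold change of 0.82. Of the 21 mitotic genes, 11 rose and 0 fell, with a median of 0.33. Across all transcripts 12.8% were higher and 17.8% lower by the same rule, with a median of -0.01. With the study's further minimum of a log2 fold change of 1, Mcm2, Mcm3, Mcm6, Rrm2 and Mki67 passed, 5 of 36 members, against 1.98% of all transcripts. Every SCI/TMX- rat lay above every Sham/TMX- rat for 10 of the 14 replication genes and 4 of the 21 mitotic genes, against 8.96% of all transcripts. Whether the shares differ between the 2 classes was not tested.

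Subunits of the MCM helicase, which unwinds DNA at the replication fork, rose at all 5 of their named genes, Mcm2, Mcm3, Mcm4, Mcm6 and Mcm7, by 0.69 to 1.76. Mcm6 had log2 signals of 6.13, 5.70, 5.64, 6.08 and 5.68 in SCI/TMX- rats 13c, 15c, 16c, 17c and 18c. In Sham/TMX- rats 1a, 3a, 4a, 5a and 6a it had 4.02, 4.22, 3.84, 3.94 and 4.38. The lowest SCI rat was above the highest sham rat by more than the whole range of either group. The log2 fold change was 1.76 ± 0.16 (SE, adjusted p = 4.63e-09), a fold of 3.40, the largest of the members named by the annotation. Mcm3 stood at 5.51, 5.21, 6.11, 6.25 and 5.24 in the SCI/TMX- rats in the same order. Its Sham/TMX- values were 4.66, 4.42, 4.19, 4.39 and 4.84, so the groups did not overlap, and 16c and 17c were the highest. Its log2 fold change was 1.16 ± 0.18 (adjusted p = 1.59e-05). Mcm2 rose by 1.18 ± 0.19, Mcm4 by 0.82 ± 0.16 (16c highest and the groups overlapping) and Mcm7 by 0.69 ± 0.11. Mcm5, outside the counts, had 1.43 ± 0.27.

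The factors that load and activate the helicase were less uniform. Gins1, a subunit of the GINS complex that joins the helicase at the fork, had log2 signals of 3.69, 3.85, 3.74, 3.72 and 4.11 in SCI/TMX- rats. Its Sham/TMX- signals were 3.08, 2.58, 2.83, 2.75 and 3.26, below every SCI/TMX- rat. The log2 fold change was 0.92 ± 0.15 (adjusted p = 1.84e-05). Cdt1, which brings the MCM ring to origins, rose by 0.54 ± 0.20 (adjusted p = 0.0385), and it was the 1 replication gene whose call was lost without 13c and 15c together, and also without 1a, 4a, 6a or 15c alone. Cdc6, its partner at origins, had 0.27 ± 0.19 (adjusted p = 0.309), and Gins2, a second GINS subunit, 0.32 ± 0.13 (adjusted p = 0.0653).

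Genes that supply the fork rose in all 3 cases. Pcna, the sliding clamp of the DNA polymerases, had log2 signals of 8.30, 8.38, 8.68, 8.79 and 8.70 in SCI/TMX- and of 7.76, 7.83, 7.53, 7.51 and 7.80 in Sham/TMX-. The groups were well apart, and the difference was 0.88 ± 0.11 (adjusted p = 5.20e-07). Rrm2, the small subunit of ribonucleotide reductase, rose by 1.03 ± 0.20, and Tyms, which makes thymidylate, by 0.44 ± 0.13 (adjusted p = 0.00814). Chek1, the kinase of the replication checkpoint, rose by 0.82 ± 0.18 (adjusted p = 0.00106). E2f1, an E2F factor itself, differed by 0.09 with a 95% confidence interval from -0.25 to 0.43 (adjusted p = 0.732).

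**Figure D2:**
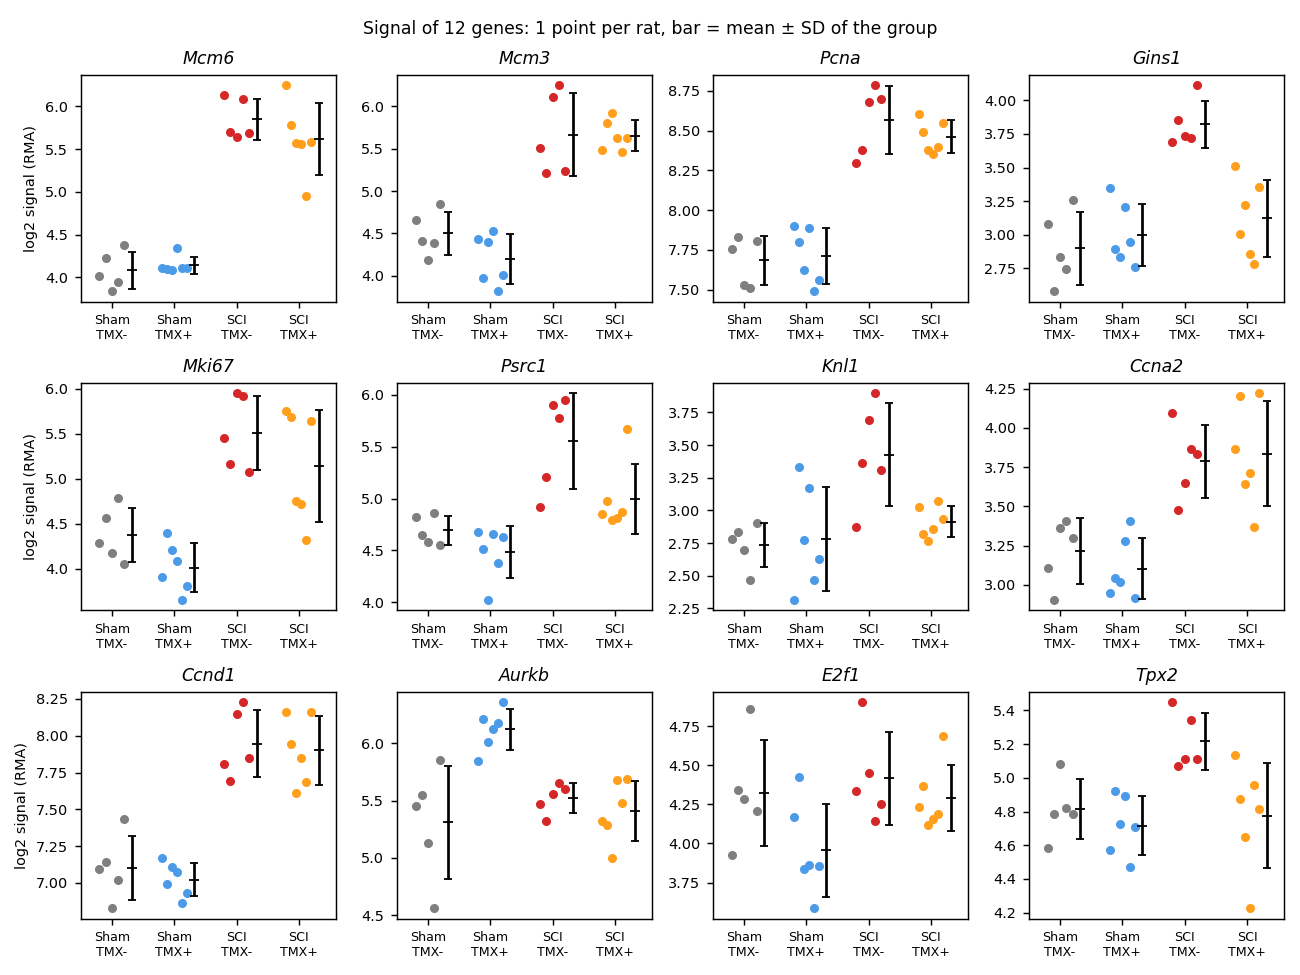
Log2 signal of 12 genes in each rat, with 1 point per rat, the 4 groups along the x axis, and a bar for the mean ± SD of the group beside the points. Mcm6, Mcm3, Pcna and Ccnd1 are higher in all SCI rats than in all sham rats of the same treatment, Gins1 is lower in SCI/TMX+ than in SCI/TMX-, and Aurkb is highest in Sham/TMX+.

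Among the mitotic genes, the rise was largest for Mki67, whose product Ki-67 coats mitotic chromosomes and serves as a marker of cycling cells. Mki67 had log2 signals of 5.45, 5.17, 5.95, 5.92 and 5.07 in SCI/TMX- and of 4.29, 4.56, 4.18, 4.78 and 4.06 in Sham/TMX-. All SCI/TMX- rats were above all Sham/TMX- rats, with 16c and 17c again the highest, and the difference was 1.14 ± 0.24 (adjusted p = 0.000546). Psrc1, which encodes a spindle protein, had 4.92, 5.20, 5.91, 5.78 and 5.95 in SCI/TMX- and 4.82, 4.65, 4.58, 4.86 and 4.55 in Sham/TMX-. Rat 13c lay just above the sham range and the other SCI/TMX- rats well above it, giving 0.86 ± 0.18 (adjusted p = 0.000573). Without 13c and 15c the difference in Psrc1 was 1.19.

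Knl1, a scaffold of the kinetochore, had log2 signals of 2.87, 3.36, 3.69, 3.90 and 3.31 in SCI/TMX- and of 2.78, 2.83, 2.69, 2.47 and 2.90 in Sham/TMX-. Rat 13c was within the sham range and the other 4 were above it (0.69 ± 0.17, adjusted p = 0.00257). Ccna2, cyclin A2, which acts in both S phase and G2, had 4.10, 3.48, 3.65, 3.87 and 3.84 in SCI/TMX- and 3.11, 2.91, 3.36, 3.41 and 3.30 in Sham/TMX-. The groups did not overlap, and the difference was 0.57 ± 0.15 (adjusted p = 0.00397). Cdk1, the kinase that drives entry into mitosis, rose by 0.73 ± 0.19 (adjusted p = 0.0047). Its B-type cyclins did not pass, at -0.07 ± 0.17 for Ccnb1 and 0.18 ± 0.14 for Ccnb2.

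Of the 5 mitotic kinases, Bub1 of the spindle checkpoint rose by 0.56 ± 0.15, while Aurkb, Plk1, Ttk and Aurka had 0.21, 0.27, -0.02 and -0.01. Of the 7 kinesins and spindle proteins, 5 rose: Psrc1, the spindle binder Nusap1 (0.55), the microtubule bundler Prc1 (0.51), the Aurora A activator Tpx2 (0.40) and the spindle motor Kif11 (0.33). The cytokinesis motors Kif23 and Kif20a had 0.23 and -0.09. Birc5, survivin of the chromosomal passenger complex, rose by 0.53 ± 0.19, whereas Ube2c and Cdc20 of the anaphase-promoting complex pathway had 0.31 (adjusted p = 0.0616) and 0.06. Top2a, a topoisomerase outside the counts, had 1.06 ± 0.20. Without 13c and 15c, which leaves 3 SCI/TMX- rats, 10 replication genes and 6 mitotic genes rose, the latter being Mki67, Ccna2, Bub1, Kif11, Psrc1 and Knl1. The share of all transcripts called in that smaller fit was not computed, so whether the loss of calls is particular to mitotic genes cannot be told. When each of the 22 rats was left out alone, Kif11 and Tpx2 lost their call in 3 cases each, Nusap1 and Birc5 in 5 and Prc1 in 6, and the other 6 mitotic calls held in every case.

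Ccnd1, cyclin D1, which couples growth signals to the G1 kinases, had log2 signals of 7.81, 7.70, 8.15, 8.23 and 7.85 in SCI/TMX- and of 7.09, 7.14, 6.83, 7.02 and 7.43 in Sham/TMX-. The groups did not overlap (0.84 ± 0.12, adjusted p = 8.25e-06). Of 16 further measured genes of G1 control (cyclins, kinases, pocket proteins, transcription factors such as Myc), 8 rose and 2 fell. The growth regulator Myc rose by 2.93 ± 0.14, the G1 kinases Cdk6 and Cdk4 by 1.34 ± 0.15 and 0.49 ± 0.08, and the pocket protein Rbl1 by 0.92 ± 0.21. Of 7 CDK inhibitors, Cdkn1a, the p53 target p21, rose by 1.08 ± 0.24 and Cdkn2d by 0.70 ± 0.10, while Cdkn1b had -0.20 and Cdkn2b 0.24.

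Further genes of both phases showed smaller shares. Of 37 other replication genes measured, 16 rose and 0 fell, with a median of 0.34. Among them were the clamp loader subunits Rfc4 (0.76 ± 0.10) and Rfc5 (0.52 ± 0.12), the fork protection gene Tipin (0.84 ± 0.12) and thymidine kinase Tk1 (0.95 ± 0.22). Of 46 other mitotic genes measured, 11 rose and 1 fell, with a median of 0.21. The cell cycle transcription factor Mybl2 rose by 0.77 ± 0.13, the spindle protein Ckap2 by 0.76 ± 0.14 and the nuclear lamina gene Lmnb1 by 0.80 ± 0.15, while Spag5, a spindle and kinetochore protein, fell by 0.67 ± 0.11 on the log2 scale.

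Markers of other cells moved with SCI in the same rats. All 7 measured monocyte and macrophage markers rose, and the mean log2 signal of that list ran from 5.80 to 6.05 in Sham/TMX- and from 7.51 to 8.48 in SCI/TMX-. Of 7 neutrophil markers 4 rose (3.56 to 4.05 against 4.53 to 4.97), and all 6 red blood cell markers rose (5.15 to 5.91 against 7.17 to 8.01). All 5 markers of resting microglia fell (6.73 to 7.04 against 5.74 to 6.18), as did 6 of 8 for neurons and 5 of 7 for astrocytes. Of 7 markers of oligodendrocyte precursors 1 rose and 2 fell, of 6 for endothelium 2 rose, and of 4 for lymphocytes 0 rose and 1 fell. Of 6 oligodendrocyte markers 1 rose and 3 fell, of 7 for fibroblasts and meninges 2 rose and 1 fell, and of 4 for ependyma 0 passed. Beside these counts, 12.8% of all transcripts rose and 17.8% fell. The part of these shifts in the cell cycle differences was not tested. In tissue of mixed cells, more cells of a type and more RNA per cell cannot be told apart.

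**Figure D3:**
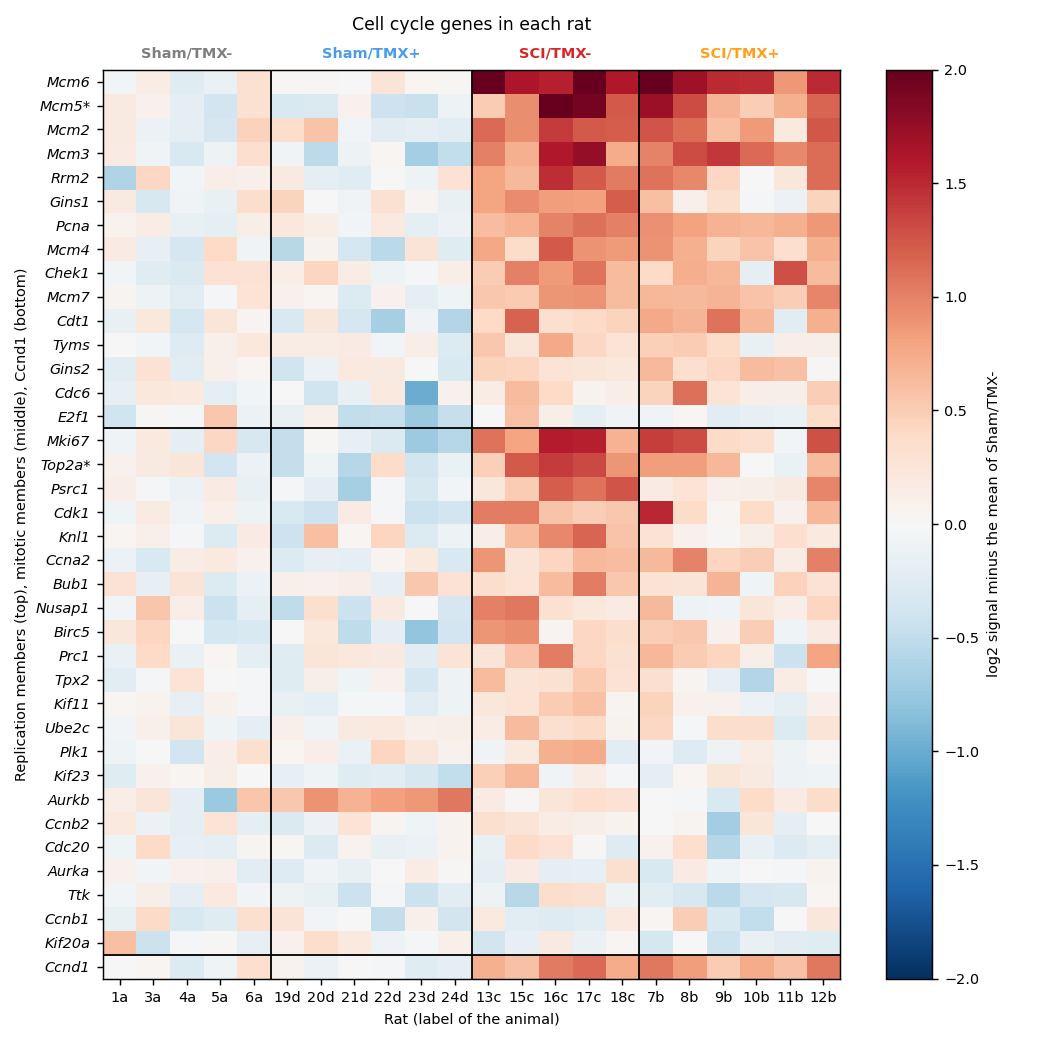
Deviation of each gene from its mean in Sham/TMX-, in log2 units, for 38 genes (rows) and 22 rats (columns, by group); red is higher and blue lower, colours end at 2 in either direction, and asterisks mark the genes named only by the study's list. The MCM rows are red across nearly all SCI rats, and Aurkb is red across Sham/TMX+.

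With TMX, the replication genes were again higher after SCI, while fewer mitotic genes passed. In SCI/TMX+ against Sham/TMX+, 11 of 14 replication genes rose and 0 fell, with a median log2 fold change of 0.68. Of the 21 mitotic genes, 5 rose, namely Mki67, Cdk1, Ccna2, Birc5 and Psrc1, and 2 fell, namely Aurkb and Kif20a, with a median of 0.13. Across all transcripts 14.3% rose and 19.7% fell, and the median was -0.02. Mcm3, Mcm6 and Mki67 passed the minimum of 1, against 1.93% of all transcripts. Every SCI/TMX+ rat was above every Sham/TMX+ rat for 5 of 14 replication genes and 1 of 21 mitotic genes, against 9.16% of all transcripts. Between both comparisons, 9 replication genes and 5 mitotic genes were called higher in each. The share of all transcripts called higher in both was not computed, so these 2 counts have no background beside them. Without 11b, 10 replication genes and 6 mitotic genes rose with TMX, and the share of all transcripts in that fit was not computed. Leaving out each rat in turn gave 4 to 6 mitotic genes, with 4 without 12b or 21d, where Psrc1 lost its call.

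Mcm6 ran from 4.95 through a median of 5.58 to 6.25 in SCI/TMX+ and from 4.08 through 4.11 to 4.34 in Sham/TMX+. The groups did not overlap, 11b was the lowest SCI rat, and the difference was 1.47 ± 0.15 (adjusted p = 1.43e-08). Mcm3 ran from 5.46 through 5.63 to 5.92 and from 3.82 through 4.21 to 4.53, again without overlap (1.46 ± 0.16, adjusted p = 1.25e-07). Pcna ran from 8.35 through 8.45 to 8.60 and from 7.49 through 7.71 to 7.90, likewise apart (0.75 ± 0.10). Cdc6 and Gins2 passed here, at 0.64 ± 0.17 and 0.51 ± 0.12, while Tyms had 0.20 ± 0.12 and Gins1 0.12 ± 0.13 (adjusted p = 0.525). Chek1 passed at 0.47 ± 0.17 (limma, adjusted p = 0.0318). Its call was lost in 6 of the 22 cases with 1 rat left out, and the other replication calls with TMX held in every case.

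Mki67 ran from 4.32 through 5.20 to 5.76 in SCI/TMX+ and from 3.65 through 3.99 to 4.39 in Sham/TMX+. Rats 9b, 10b and 11b formed the lower part of the SCI range, with 11b inside the sham range, and the difference was 1.14 ± 0.22 (adjusted p = 0.000171). Ccna2 rose by 0.73 ± 0.14 and Psrc1 by 0.51 ± 0.17, where 12b alone was above 5. Knl1 had 0.13 ± 0.16 (2.77 through 2.89 to 3.07 against 2.32 through 2.70 to 3.33), with the SCI range inside that of sham. Ccnd1 rose by 0.88 ± 0.11, from 7.61 through 7.89 to 8.16 in SCI/TMX+ against 6.86 through 7.03 to 7.17.

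Aurkb, the kinase of the chromosomal passenger complex, was lower in SCI/TMX+ than in Sham/TMX+. It ran from 5.00 through 5.40 to 5.68 in SCI/TMX+ and from 5.85 through 6.15 to 6.36 in Sham/TMX+, so every SCI/TMX+ rat was below every Sham/TMX+ rat. It fell by 0.71 ± 0.15 on the log2 scale (adjusted p = 0.000608). Kif20a fell by 0.33 ± 0.13 (adjusted p = 0.0478), close to the threshold. Its call was lost with a trend and robust eBayes, with a second quantile normalization, with the replicate block and in 14 of the 22 cases with 1 rat left out (4a, 5a, 6a, 17c, 18c, 7b, 9b, 10b, 11b, 12b, 19d, 20d, 21d or 24d). Of the other lists, 10 of 37 further replication genes and 5 of 46 further mitotic genes rose, the latter a smaller share than the 14.3% of all transcripts, and Spag5 was again lower. Monocyte and macrophage markers rose at 7 of 7 genes with TMX as well, with list means of 5.80 to 6.00 in Sham/TMX+ and 7.62 to 8.06 in SCI/TMX+.

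**Figure D4:**
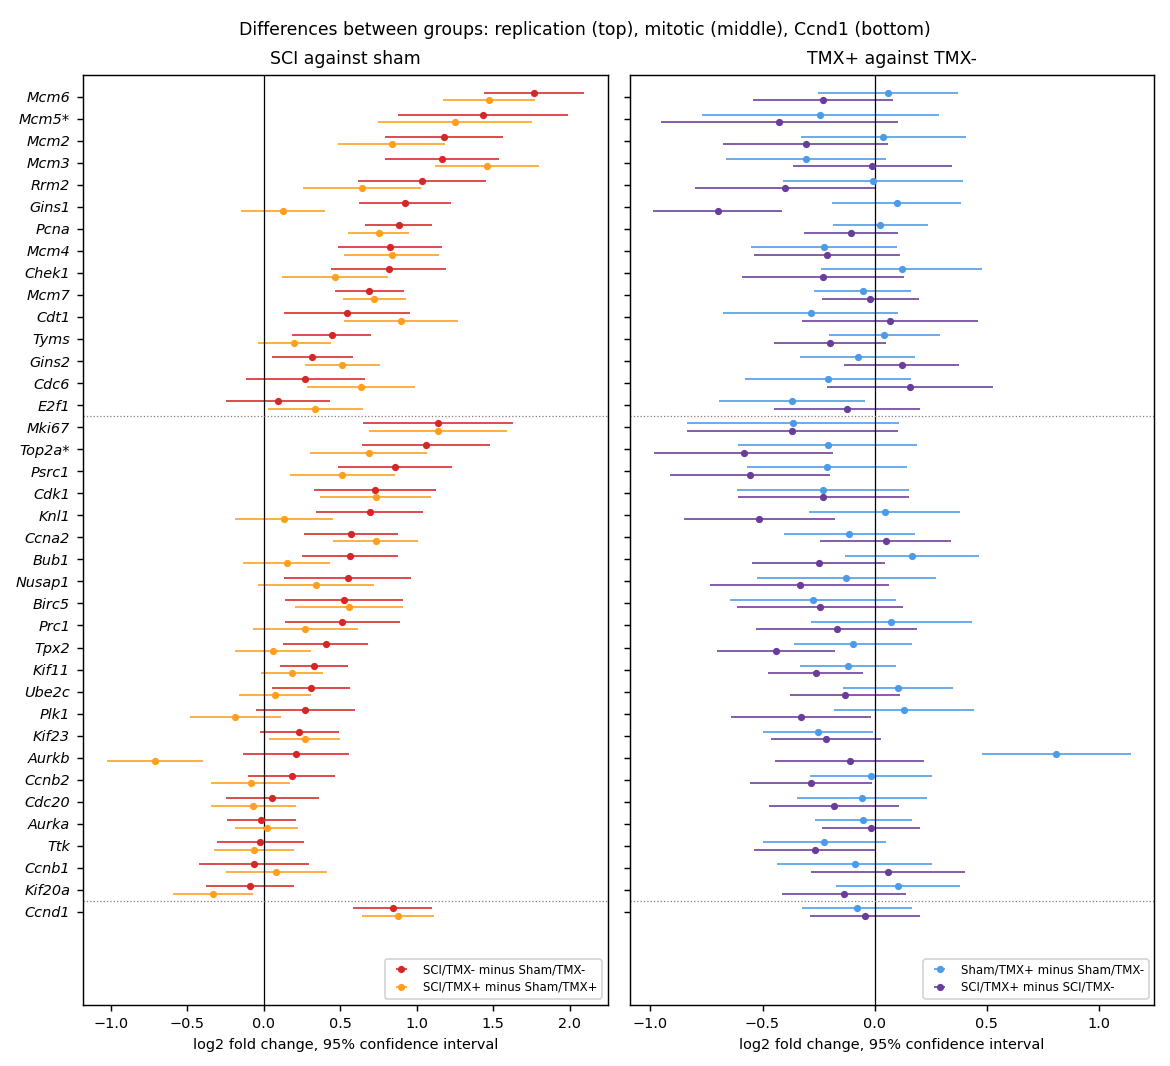
Log2 fold change with its 95% confidence interval for 38 genes, ordered within class by SCI/TMX- against Sham/TMX-. The left panel gives SCI against sham without TMX (red) and with TMX (orange), the right panel TMX+ against TMX- in sham (blue) and SCI (purple); replication genes are above the first dotted line, mitotic genes between the lines and Ccnd1 below, and asterisks mark genes outside the counts. Aurkb at 0.81 in sham and Gins1 at -0.70 in SCI are the TMX differences beyond 0.7.

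TMX without injury left nearly all members within the spread between rats. The study's rule for TMX asks for a log2 fold change of more than 0.7 in size and an unadjusted p under 0.05. By it, Aurkb alone of 36 members was called in Sham/TMX+ against Sham/TMX-, against 0.0302% of all transcripts. Aurkb had log2 signals of 5.45, 5.55, 5.13, 4.56 and 5.86 in Sham/TMX- and ran from 5.85 through 6.15 to 6.36 in Sham/TMX+. The ranges touched only through 6a and 19d, and 5a was the lowest of all rats. The difference was 0.81 ± 0.16 (limma, unadjusted p = 3.29e-05, adjusted p = 0.148), and without 5a it was 0.62, below the minimum of 0.7. E2f1 had 3.93, 4.35, 4.28, 4.86 and 4.21 in Sham/TMX- and ran from 3.58 through 3.86 to 4.42 in Sham/TMX+. Its groups overlapped widely, and its difference of -0.37 ± 0.16 (limma, unadjusted p = 0.0277, adjusted p = 0.866) was under the minimum. At an unadjusted p under 0.05 with no minimum, 3 members passed, the third being Kif23 at -0.25, against 5.46% of all transcripts. The medians were -0.03 for replication genes and -0.09 for mitotic genes.

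In the injured cord, TMX went with lower signals for most members, though few passed a test singly. In SCI/TMX+ against SCI/TMX-, 11 of 14 replication genes and 19 of 21 mitotic genes had a negative log2 fold change, as had 11962 of 23188 transcripts, and the medians were -0.16, -0.24 and -0.01. Of the further genes, 30 of 37 for replication and 36 of 46 for mitosis were negative. Gins1 alone passed the study's rule, against 0.129% of all transcripts. Its mean log2 signal over all arrays was 3.20, the lowest of the replication genes and below that of the median transcript. Its log2 signals in SCI/TMX- were those given above, 3.69 to 4.11, and in SCI/TMX+ they ran from 2.79 through 3.12 to 3.51, so the groups did not overlap. The difference was -0.70 ± 0.14 (limma, unadjusted p = 3.32e-05, adjusted p = 0.0673). It lies at the minimum of 0.7, and leaving out 1 rat at a time moved it from -0.63 (without 18c) to -0.78 (without 7b), short of 0.7 without 8b, 10b, 11b, 15c or 18c. It was also short of it with a second quantile normalization and with array weights, and with those weights Psrc1 was called instead.

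In the same comparison, no cell marker of any list passed an adjusted p under 0.05. The 6 red blood cell markers had a median of 0.37, with 5 positive, and list means of 7.17 to 8.01 in SCI/TMX- and 7.46 to 8.09 in SCI/TMX+. At an unadjusted p under 0.05, 10.4% of all transcripts differed in either direction. By that rule 2 of 7 markers of oligodendrocyte precursors were lower (Vcan at -0.30 and Ptprz1 at -0.18). Of 4 lymphocyte markers, 2 were lower (Cd8a and Cd3e) and 1 higher (Cd4). Of 6 red blood cell markers 1 was higher, and of 8 neuronal markers 1 was higher. Of 7 neutrophil markers 1 was lower, and of 7 fibroblast and meningeal markers 1 was higher and 1 lower. No marker of astrocytes, resting microglia, endothelium, oligodendrocytes or ependyma passed. Of 7 monocyte and macrophage markers, Ccr2 was lower at -0.85, and the median was -0.07. The list means overlapped between the groups, at 7.51 to 8.48 and 7.62 to 8.06 for monocytes and macrophages, 7.68 to 7.98 and 7.68 to 7.79 for oligodendrocyte precursors, and 3.78 to 4.04 and 3.77 to 3.94 for lymphocytes. The part of these markers in the lower signals of the members was not tested.

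At an unadjusted p under 0.05 alone, 7 members were lower with TMX after SCI and 0 were higher. Of 23188 transcripts, 1045 were lower and 1378 higher by that rule, 10.4% in either direction. The 7 members were Gins1, Psrc1 (-0.56), Knl1 (-0.51), Tpx2 (-0.44), Plk1 (-0.33), Ccnb2 (-0.28) and Kif11 (-0.26). Tpx2 had log2 signals of 5.45, 5.07, 5.11, 5.34 and 5.11 in SCI/TMX- and ran from 4.23 through 4.84 to 5.14 in SCI/TMX+. Rat 7b alone of the SCI/TMX+ rats reached into the SCI/TMX- range, and 10b was the lowest (limma, unadjusted p = 0.002, adjusted p = 0.211). This comparison and that of SCI/TMX- with Sham/TMX- share the SCI/TMX- arrays, so high values in those 5 rats enter both. Of 7 CDK inhibitors, 5 had a negative log2 fold change in SCI/TMX+ against SCI/TMX-, and the median was -0.03. None passed an adjusted p under 0.05, and 2 were higher at an unadjusted p under 0.05. The largest difference among the 7 was that of Cdkn1a, at 0.77 ± 0.23 (limma, unadjusted p = 0.00258, adjusted p = 0.225).

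The mean deviation of a class from Sham/TMX- in each rat shows how the 2 classes went together. Over the 14 replication genes it ran from 0.69 to 0.91 in SCI/TMX-, from 0.39 to 0.80 in SCI/TMX+, and from -0.19 to 0.16 in the sham rats. Over the 21 mitotic genes it ran from 0.28 to 0.46, from -0.03 to 0.30, and from -0.11 to 0.10. On the replication axis the lowest SCI rats, 11b (0.39) and 10b (0.44), were still above every sham rat. On the mitotic axis 9b, 10b and 11b, at -0.02, 0.08 and -0.03, lay within the sham range, while 7b, 8b and 12b lay at 0.23 to 0.30. Rats 16c and 17c were the highest on both.

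**Figure D5:**
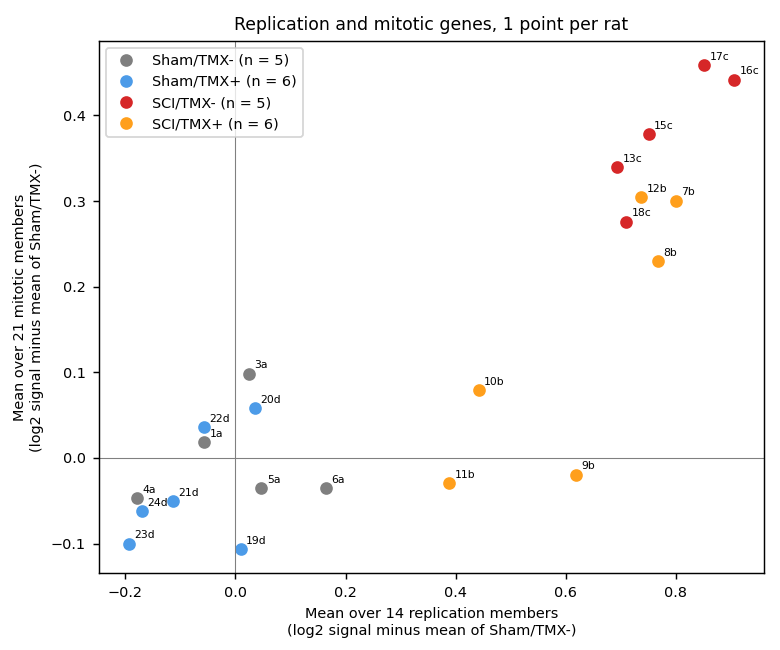
Mean log2 deviation from Sham/TMX- over 14 replication genes (x axis) and 21 mitotic genes (y axis), with 1 labelled point per rat coloured by group. All SCI rats lie to the right of all sham rats, and 9b, 10b and 11b lie at the height of the sham rats.

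Whether the effect of TMX differed between SCI and sham was tested as an interaction. By limma, 0 of 36 members, and 0% of all transcripts, passed an adjusted p under 0.05. At an unadjusted p under 0.05, 4 members passed, all negative. Of 23188 transcripts, 765 were negative and 820 positive by that rule, 6.84% in either direction. Aurkb had an interaction of -0.92 ± 0.23 and Gins1 of -0.80 ± 0.20 (adjusted p = 0.419 for each), Knl1 of -0.56 ± 0.23 and Plk1 of -0.46 ± 0.21. For Aurkb the 2 sham groups differed and the SCI groups did not separate, at 5.52 ± 0.13 (SD, n = 5) without TMX and 5.41 ± 0.26 (SD, n = 6) with it. For Gins1 the SCI groups differed, at 3.82 ± 0.17 (SD, n = 5) and 3.12 ± 0.29 (SD, n = 6), and the sham groups lay at 2.90 ± 0.27 (SD, n = 5) and 3.00 ± 0.23 (SD, n = 6). For Mki67 the interaction was 0.00 in size, with a 95% confidence interval from -0.67 to 0.67, and for Mcm6 it was -0.29 ± 0.22. So a mitotic gene called only without TMX, such as Bub1 (interaction -0.42 ± 0.20, adjusted p = 0.731), was not shown to respond differently with TMX.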

How the data were processed

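The authors hybridised cord RNA of 22 rats to Clariom S arrays and deposited 1 table of log2 values, made by RMA in oligo 1.56, per the labels and the study's methods. RMA subtracts background, brings all arrays to one distribution and combines a transcript's probes. The deposited log2 values entered the fit unchanged, and the quantile normalization in RMA can hide a shift of all genes. Groups came from the sample labels, and the study left out 1 sample of each TMX- group for RNA quality. Platform annotation named 15049 of 23188 transcripts, and the study's tables named Mcm5 and Top2a.

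In R 4.3.3, limma 3.58.1 fitted the 4 group means (18 residual and 6.99 prior degrees of freedom), with two-sided moderated tests and Benjamini-Hochberg adjustment over 23188 transcripts. The threshold for SCI was an adjusted p of 0.05, also with a minimum log2 fold change of 1, and for TMX a size over 0.7 and unadjusted p under 0.05. Errors of differences are model standard errors. The number of arrays limits precision. Values per rat are given for the 4 replication and 4 mitotic members with the largest moderated t after SCI, members past the TMX thresholds, Ccnd1, and the 2 members with the smallest p in the interaction and in either TMX contrast. Other lists are described by up to 4 genes with the largest moderated t. The members and lists were chosen with earlier results of these data known. The steps were tested on simulated data. Columns of the same replicate number did not deviate together (31 pairs, median correlation 0.02), so they were not paired. Alternatives were a trend and robust eBayes, low signal left out, other scaling, array weights, 1 transcript per gene, only the groups compared, the replicate block, each rat left out, 13c and 15c left out, and other thresholds.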

Additional observations from a re-analysis of the deposited data

Results flagged for a closer look

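Of 152 sets of values examined, each 1 gene in 1 group of rats, 6 held a rat whose gap to the next value exceeded the Dixon limit, and chance alone marks about 1 in 20. For Mcm6, 22d of Sham/TMX+ had a log2 signal of 4.34 against 4.08 to 4.11 in the others. For Cdt1, 15c of SCI/TMX- had 5.28 against 4.42 to 4.55, and 11b of SCI/TMX+ had 3.89 against 4.77 to 5.19. For Kif23, 1a of Sham/TMX- had 3.97 against 4.22 to 4.33. For Ube2c, 20d of Sham/TMX+ had 5.50 against 5.67 to 5.77. For Psrc1, 12b of SCI/TMX+ had 5.68 against 4.79 to 4.97.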

How the results depend on the processing

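Of 1184 values under alternative settings, 1136 kept their side of the threshold or moved by less than the limit set for them, 38 counts moved by over 1.5 times, 9 single-gene calls were lost and 1 median turned by more than the spread between rats. Leaving out transcripts of low signal, which keeps 5 replication and 3 mitotic members, gave 5 and 2 higher after SCI without TMX and 4 and 1 with TMX, 7 and 1 of the further replication and mitotic genes without TMX and 4 and 1 with it, and 0 members called for TMX in SCI. The last count follows from the filter, since Gins1, the only member called, was left out by it. The share of all transcripts called was not computed for fits with transcripts or rats left out, so these counts have no background beside them. With low signal left out, the median of the mitotic genes for TMX in sham turned to 0.10, and that of the replication genes, -0.03, to 0.03. The latter was also above 0 without 3a, 6a (0.02) or 21d, within the spread between rats. A minimum log2 fold change of 1 gave 4 replication and 1 mitotic gene without TMX and 2 and 1 with it, 0 of the further genes of either phase, 2 of the G1 list and 1 CDK inhibitor in both comparisons. Without 13c and 15c, 6 mitotic genes rose and 3 members were called for TMX in SCI (Gins1, Psrc1 and Knl1).

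For TMX in sham, an adjusted p alone gave 0 members and an unadjusted p alone 3, and leaving out 1 rat gave 0 to 1, with 0 without 5a. For TMX in SCI, an adjusted p alone gave 0, an unadjusted p alone 7, a second quantile normalization 0, and leaving out 1 rat 0 to 2, with 2 without 13c. With the replicate block, Gins1 was at -0.70, just short of the minimum, so 0 members were called. That block also ended the call of Kif20a with TMX and called Ube2c higher without it, and changed no other call of a member. An unadjusted p with a difference beyond 0.7 gave 2 interactions. Leaving out 1 rat gave 4 to 8 further mitotic genes higher with TMX, with 8 without 11b. After SCI without TMX, it gave 10 to 12 replication and 8 to 12 mitotic genes. The causes were not tested, other than fewer genes or rats entering. Most members are below the median signal, which limits what small changes can show.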
